A study of Mus musculus with 4 samples.

Results

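The 10 genes described here belong to the circadian clock: Arntl, Clock and Npas2 of its positive limb, Per1, Per2 and Per3 of its negative limb, the output activators Dbp and Tef, and the nuclear receptors Nr1d1 and Nr1d2. They were taken by symbol from the count tables, which list 32285 genes, and all 10 had a row in each table. The tables come from spatial transcriptomics (Visium, a slide whose barcoded spots capture polyadenylated RNA from a tissue section, each spot covering several cells) of lung cryosections through the upper pulmonary branches. There were 4 C57BL/6J mice, namely 2 Non-Vaped mice (NV, 1 male and 1 female) and 2 Vaped mice (V, 1 male and 1 female). All mice were wild type, came from the same supplier and lived under a cycle with 12 h of light. V mice breathed the aerosol of a peach flavoured liquid with a menthol cooling agent from JUUL pens in whole body chambers. This was done for 4 h a day, 5 days a week over 9 weeks, starting at about 8 weeks of age. NV mice were the non-vaped controls. The methods call controls air-exposed in the immunoblot section, and do not say whether NV mice were also kept in chambers. The hour of the day at which each mouse was killed is not given in the sources used here, so any part that it plays in the levels of these genes was not tested.

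The clock is a feedback loop that runs in nearly every cell and keeps a daily rhythm of transcription. ARNTL (also called BMAL1) pairs with CLOCK or NPAS2 on E-box sequences and activates the Per genes, Dbp, Tef, Nr1d1 and Nr1d2, after which PER proteins with CRY proteins shut ARNTL and CLOCK off, and NR1D1 and NR1D2 (REV-ERB) repress Arntl through ROR elements. In mouse lung, as in liver, Arntl transcripts run close to antiphase with Dbp and Nr1d1, and the Per1 and Per2 transcripts crest somewhat later in the day than those of Dbp and Nr1d1.

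Promoter sequences are shown for the 5 members whose windows held a motif of the loop. RefSeq promoter windows (250 bases before to 50 bases after a transcription start, build GRCm38.p6) were found for 9 of the 10 genes, 14 windows in all. They were searched on both strands for the E-box CACGTG, the E-prime box CACGTT, the D-box TTATGNAA (bound by DBP and TEF), the ROR element core TAGGTNA (bound by ROR activators and by NR1D1 and NR1D2) and the cyclic AMP response element TGACGTCA. The 5 motifs do not overlap each other in the matches found. Among all 32851 windows, 7.15% held the E-box, 4.68% the E-prime box, 3.38% the D-box, 8.29% the ROR element core and 1.79% the cyclic AMP response element. Arntl (chr7:113207465-113314126, plus strand) held 2 copies of the ROR element core inside annotated exon sequence, and each is shown with its neighbouring bases, the core in capitals, at chr7:113207494-113207523 and chr7:113207530-113207559 on the plus strand.
Arntl, upstream core: tggtcggaaagTAGGTTAgtggtgcgacat
Arntl, downstream core: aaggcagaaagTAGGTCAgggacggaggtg
Per1 (chr11:69095217-69109960, plus strand) held an E-box 166 bases and a D-box 24 bases before an internal start of the gene. The bases before that start, outside annotated exons, are chr11:69098699-69098947 on the plus strand, with both motifs in capitals.
Per1: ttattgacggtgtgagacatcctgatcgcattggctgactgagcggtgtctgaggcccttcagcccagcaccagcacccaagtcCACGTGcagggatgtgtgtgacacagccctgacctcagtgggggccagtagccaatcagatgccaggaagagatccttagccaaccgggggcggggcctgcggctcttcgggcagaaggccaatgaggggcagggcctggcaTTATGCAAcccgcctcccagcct
Per3 (chr4:151003652-151044665, minus strand) held the D-box at 2 places, 205 and 158 bases before its start. The stretch is chr4:151044666-151044915, read on the minus strand, with the D-boxes in capitals.
Per3: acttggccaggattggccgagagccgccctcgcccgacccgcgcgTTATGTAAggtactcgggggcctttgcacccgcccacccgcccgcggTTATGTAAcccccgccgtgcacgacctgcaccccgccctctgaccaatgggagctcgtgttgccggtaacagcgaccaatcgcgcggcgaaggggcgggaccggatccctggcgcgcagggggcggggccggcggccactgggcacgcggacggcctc
Tef (chr15:81802421-81826863, plus strand) held an E-box in each of its 2 windows, and the one 138 bases before the downstream start is shown in capitals at chr15:81811164-81811413 on the plus strand.
Tef: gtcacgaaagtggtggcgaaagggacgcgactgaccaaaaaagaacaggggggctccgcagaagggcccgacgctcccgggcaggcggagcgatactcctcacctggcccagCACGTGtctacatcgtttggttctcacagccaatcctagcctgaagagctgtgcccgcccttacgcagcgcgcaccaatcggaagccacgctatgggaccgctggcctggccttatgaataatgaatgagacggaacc
Nr1d1 (chr11:98767932-98775333, minus strand) held the E-prime box on the opposite strand, so that it reads AACGTG here, 28 bases before its start. The stretch is chr11:98775378-98775627, read on the minus strand, with the box in capitals.
Nr1d1: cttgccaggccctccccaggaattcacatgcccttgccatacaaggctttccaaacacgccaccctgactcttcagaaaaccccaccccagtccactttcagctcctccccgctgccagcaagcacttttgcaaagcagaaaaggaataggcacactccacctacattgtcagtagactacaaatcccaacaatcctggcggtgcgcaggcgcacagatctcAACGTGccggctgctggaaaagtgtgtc
No match of the 5 motifs lay in the windows of Dbp, Nr1d2, Clock and Npas2, which says only that these letters are not in these windows.

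The sections differed in what they held. The NV male had 842 spots and 9386470 UMIs (unique molecular identifiers, 1 per captured transcript), the NV female 473 spots and 6957392 UMIs, the V male 1565 spots and 11880468 UMIs, and the V female 2053 spots and 34308556 UMIs. Spots were clustered without the clock genes. Clusters rich in alveolar and capillary markers formed the lung parenchyma (596, 319, 1565 and 1297 spots in the NV male, NV female, V male and V female). A cluster led by Tnni3, Nppa and Myl7 formed a cardiac muscle region (145, 52, 0 and 179 spots). The V male section therefore held parenchyma alone, and its 1565 spots made up nearly all of 1 cluster of 1590 spots that was led by Cyp1a1. Each of the other main parenchyma clusters was likewise made up mostly of 1 mouse. Within the parenchyma, summed alveolar type 2 markers ranged from 35750 to 43830 CPM (UMIs per 1000000 UMIs of that mouse and region), whereas club cell markers stood at 15520, 1256, 302 and 14480 CPM and cardiac muscle markers at 5330, 3900, 14.3 and 2833 CPM in the NV male, NV female, V male and V female. Levels over the spots poorest in club cell, muscle and fat markers are given beside the results. These are the parenchyma spots at or below the median share of such marker RNA in each mouse. In a spot, fewer cells of a type and less RNA per cell cannot be told apart.

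The question was whether clock gene levels in the lung differ after vaping. In the parenchyma the difference between V and NV mice passed the test for no member. Dbp and Nr1d1 followed a single order across the 4 mice, lowest in the V male and highest in the V female. Per1 and Per2 were high in the V male and NV female and low in the NV male and V female, while Per3, Tef and Nr1d2 followed other orders. Values are given below as sums over the parenchyma spots of a mouse, listed as NV male, NV female, V male, V female, with a 95% exact Poisson interval where the counting error matters. Such intervals cover counting error only.

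**Figure D1:**
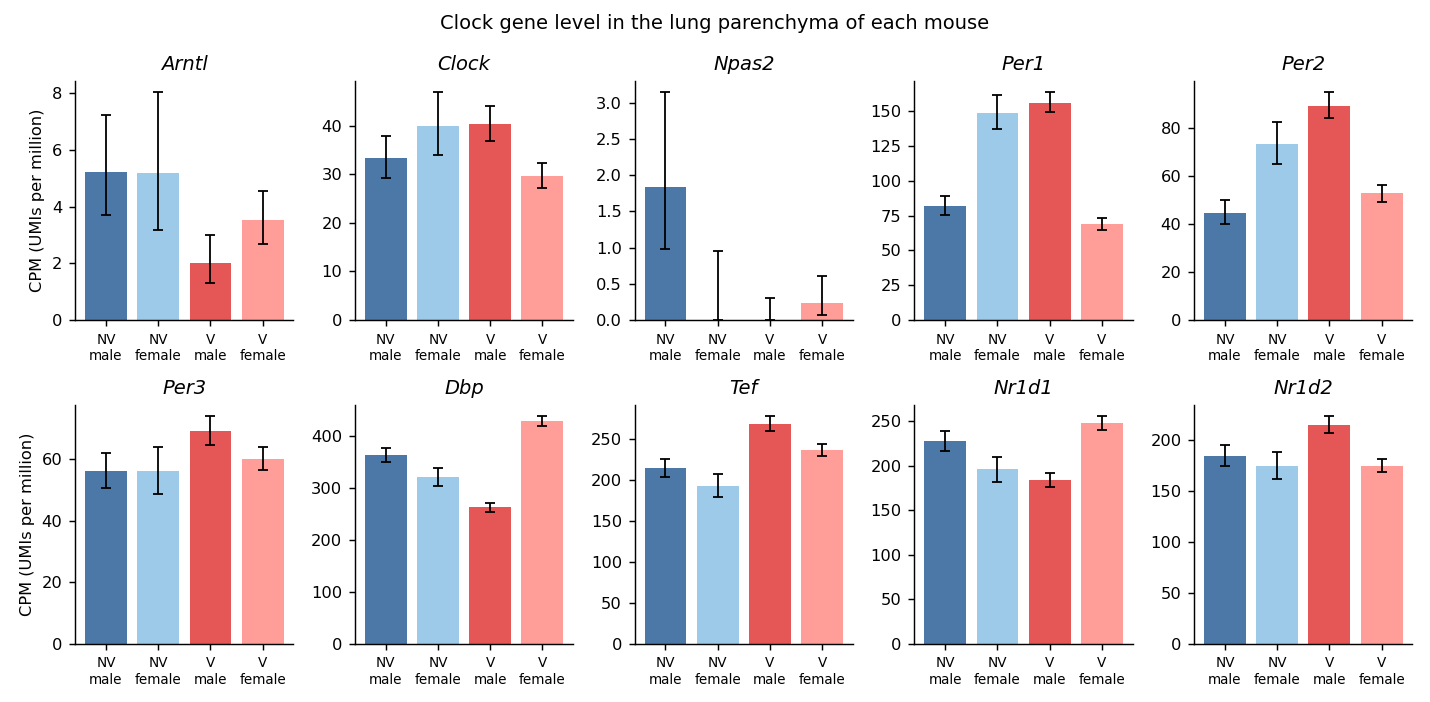
Level of each of the 10 clock genes in the lung parenchyma, in CPM, with 1 bar for each mouse and the 95% exact Poisson interval of its count. Dbp and Nr1d1 are lowest in the V male and highest in the V female, Per1 is highest in the NV female and V male, and Per3 and Tef are the members with both V bars above both NV bars.

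Within the positive limb, Arntl was scarce. Arntl stood at 5.23, 5.19, 2.02 and 3.53 CPM, from 37, 20, 24 and 59 UMIs. Both V mice were below both NV mice, but every neighbouring pair in this order had overlapping counting intervals. The V male's interval (1.29 to 3.01 CPM) lay below those of the NV male (3.68 to 7.21) and NV female (3.17 to 8.02). That of the V female (2.69 to 4.56) overlapped both. The edgeR estimate was a log2 fold change of -0.89 for V minus NV (SE 0.45, 95% CI -2.04 to 0.27, adjusted p = 0.9996 in its quasi-likelihood test). Leaving out the V male gave -0.53, leaving out the V female gave -1.37, and it was -0.47 over the spots poorest in club cell, muscle and fat markers. Clock, the partner of ARNTL, stood at 33.4, 40.0, 40.3 and 29.6 CPM, with the NV mice between the V mice. Its log2 fold change was -0.06 (95% CI -0.59 to 0.47). Npas2, which can replace CLOCK, was near the limit of detection with 13, 0, 0 and 4 UMIs. A count of 0 allowed up to 0.779 CPM in the NV female and 0.253 CPM in the V male (3 UMIs). Npas2 failed the filter on low counts and was not tested, which left 9 of the 10 members in the test.

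The Per genes encode the repressors of the loop. Per1 stood at 82.0, 148.8, 156.2 and 68.9 CPM. The NV female and V male were high with overlapping counting intervals, the NV male and V female were low, and so each group held 1 high and 1 low mouse. The log2 fold change of Per1 was -0.02 (SE 0.46, 95% CI -1.18 to 1.14), an interval that admits more than a doubling or a halving. Per2 stood at 44.8, 73.5, 89.5 and 52.9 CPM, and the groups overlapped. Its log2 fold change was 0.28 (SE 0.33, 95% CI -0.56 to 1.13). Per3 varied least of the Per genes, with 56.2, 56.1, 69.2 and 60.1 CPM. Both V mice were above both NV mice for Per3, although the V female and NV male had overlapping counting intervals, and the log2 fold change was 0.21 (SE 0.15, 95% CI -0.17 to 0.59).

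Dbp and Tef encode PAR bZIP activators that bind the D-box and carry the clock's rhythm to other genes. Dbp stood at 362.9, 320.0, 262.0 and 427.6 CPM. The 4 levels were separated by more than counting error, and the V mice held both the lowest and the highest. Its log2 fold change was 0.02 (SE 0.29, 95% CI -0.72 to 0.76). Tef stood at 214.8, 193.0, 268.8 and 236.9 CPM. Both V mice were above both NV mice, and the log2 fold change was 0.31 (SE 0.18, 95% CI -0.15 to 0.78).

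Nr1d1 and Nr1d2 encode the REV-ERB repressors. Nr1d1 stood at 227.4, 195.8, 183.8 and 248.0 CPM, which is the order of the mice for Dbp. The V male and NV female had overlapping counting intervals, the groups overlapped, and the log2 fold change was 0.04 (SE 0.23, 95% CI -0.55 to 0.62). Nr1d2 stood at 184.4, 174.3, 214.6 and 174.6 CPM. The V male was above the other 3 mice, whose counting intervals overlapped, and the log2 fold change of Nr1d2 was 0.12 (SE 0.18, 95% CI -0.35 to 0.59).

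Club cell marker RNA in the parenchyma was high in the NV male and V female, the mice in which Dbp and Nr1d1 were high and Per1 and Per2 low. Over the spots of each section poorest in club cell, muscle and fat markers, club cell markers fell to 7118, 1000, 120 and 9196 CPM. Cardiac muscle markers stood at 4764, 3168, 8.47 and 2529 CPM there, against 5330, 3900, 14.3 and 2833 CPM over all parenchyma spots. Airway and muscle RNA thus still differed widely between the mice, and its part in the levels was not tested. In these spots Dbp stood at 362.8, 319.3, 265.3 and 426.0 CPM and Per1 at 87.0, 148.3, 158.5 and 65.4 CPM, in the same order of mice and nearly the same levels. Nr1d1 stood at 240.7, 200.01, 186.8 and 244.0 CPM and Per2 at 46.2, 68.0, 90.2 and 49.9 CPM in these spots. Among the 9 tested members Arntl moved most in its fold, to 4.70, 4.82, 2.54 and 4.11 CPM on 11 to 32 UMIs, with the V mice still below but the V female nearer to the NV mice. Clock stood at 31.4, 38.2, 40.3 and 29.5 CPM, Per3 at 55.4, 52.2, 71.7 and 57.7 CPM, Tef at 216.0, 196.9, 269.2 and 228.8 CPM and Nr1d2 at 193.8, 167.1, 216.4 and 166.4 CPM. Per3 and Tef kept both V mice above both NV mice there. The median parenchyma spot held 10619, 10181, 6259 and 10461 UMIs, lowest in the V male.

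Over all 14263 genes tested in the parenchyma, edgeR's quasi-likelihood test with Benjamini-Hochberg adjustment called 0 genes (0%), where a call needed an adjusted p below 0.05 together with a log2 change of more than 0.25 either way, while an unadjusted p under 0.05 was reached by 442 genes and DESeq2 made 12 calls. None of the 9 members tested was called, and each had an adjusted p of 0.9996. More genes were called when either V mouse was left out, none of them a member, but such a fit holds no spread between V mice. The log2 fold change of Per1 was -0.69 without the V male and 0.45 without the V female. That of Dbp was 0.35 without the V male and -0.39 without the V female. The members' median log2 fold change was 0.04, against 0.0048 over all genes tested. Both V mice were above both NV mice for 2 of the 9 members (Per3 and Tef), beside 14.5% of all genes tested, and below for 1 (Arntl), beside 17.9%. With 2 mice against 2, an exact permutation test of a single gene cannot give a two-sided p below 0.333.

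**Figure D2:**
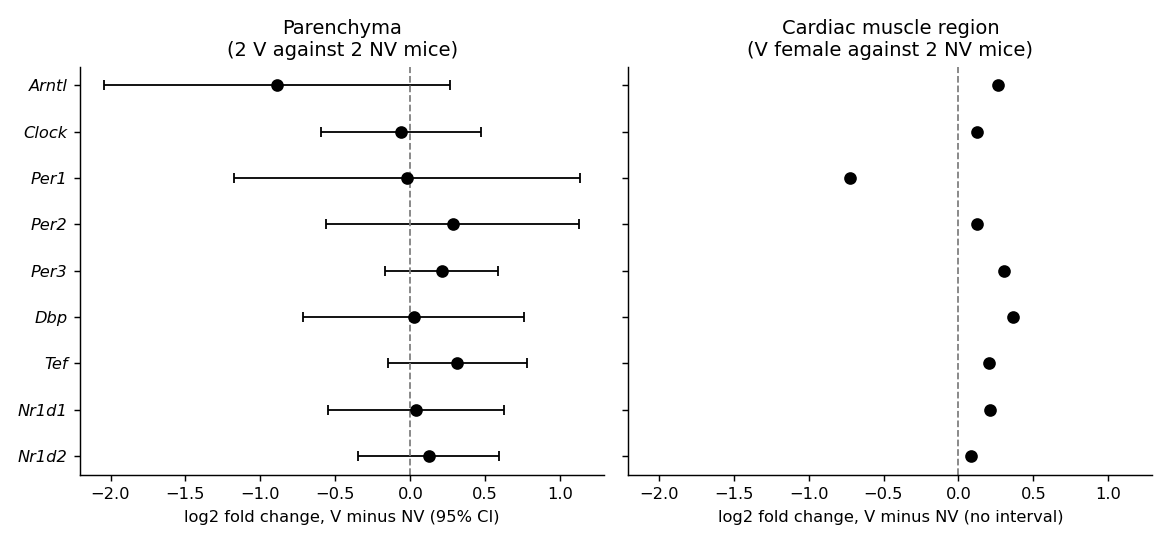
Log2 fold change of the 9 tested clock genes, V minus NV, from edgeR, with 95% confidence intervals in the parenchyma (left) and, as points without intervals, in the cardiac muscle region (right, where a single V mouse was compared). In the parenchyma every interval includes 0.

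The replicate numbers in the labels coincide with sex, so the V and NV mice were also compared within each sex, 1 mouse against 1. For 5 of the 9 tested members the V mouse was on opposite sides of its NV mouse in males and females, beside 48.7% of all genes tested. In males the V over NV ratio of Per1 was 1.90 (95% counting interval 1.73 to 2.09), while in females it was 0.463 (0.419 to 0.513). Per2 gave 1.996 (1.76 to 2.27) in males and 0.719 (0.629 to 0.825) in females. Dbp went the other way, with 0.722 (0.685 to 0.761) in males and 1.34 (1.26 to 1.42) in females, and Nr1d1 did likewise, with 0.808 (0.758 to 0.863) and 1.27 (1.17 to 1.37). Clock, a positive limb gene, gave 1.21 (1.03 to 1.42) in males and 0.741 (0.617 to 0.894) in females. Thus in males V stood above NV for Per1, Per2 and Clock and below for Dbp and Nr1d1, and in females each of these 5 was reversed. Both intervals excluded 1 for these 5 members, beside 8.5% of all genes tested, a share that also depends on how many UMIs a gene has.

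Tef kept its side in both sexes, with a V over NV ratio of 1.25 (1.18 to 1.33) in males and 1.23 (1.13 to 1.33) in females. Arntl was below in both, at 0.386 (0.221 to 0.663) in males and 0.680 (0.404 to 1.19) in females, and the interval in females includes 1. Per3 gave 1.23 and 1.07, and Nr1d2 gave 1.16 and 1.002. With a single mouse in each cell of this layout, sex and mouse cannot be told apart and the difference between the sexes was not tested.

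**Figure D3:**
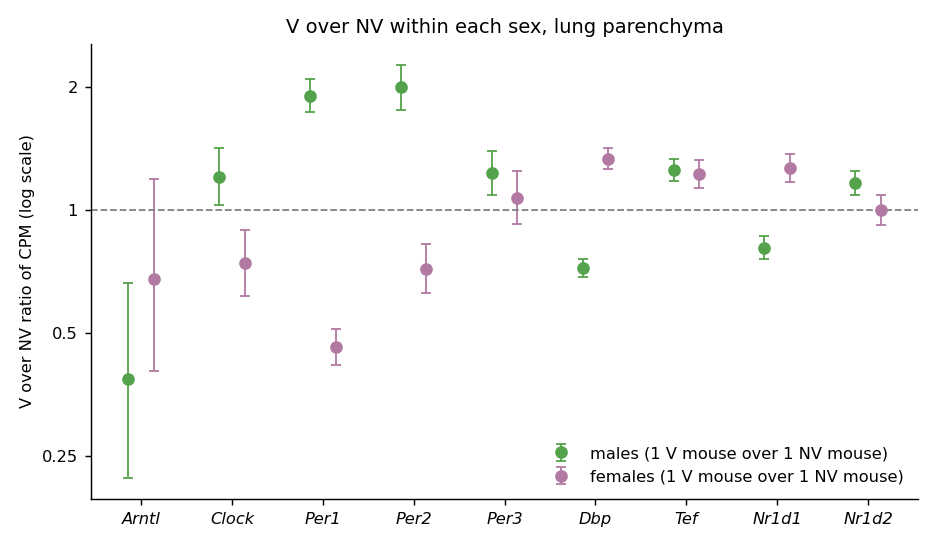
Ratio of the CPM of the V mouse to that of the NV mouse of the same sex in the parenchyma, on a log scale, for the 9 tested clock genes, with 95% counting intervals. Per1, Per2 and Clock lie above 1 in males and below 1 in females, Dbp and Nr1d1 do the opposite, and Tef lies above 1 in both sexes.

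The share of spots in which a gene was seen was compared after each parenchyma spot was thinned to 3000 UMIs, which left out 15, 11, 202 and 30 shallower spots (same order of mice). Dbp was seen in 69.9% (95% exact binomial interval 66.0 to 73.6), 59.1% (53.4 to 64.6), 53.9% (51.2 to 56.5) and 72.3% (69.7 to 74.7) of the thinned spots. The mice kept the order of their CPM. Per1 was seen in 20.5% (17.3 to 23.996), 29.9% (24.8 to 35.3), 36.3% (33.8 to 38.9) and 16.3% (14.3 to 18.5) of them, again high in the NV female and V male. Arntl was seen in 1.72%, 1.30%, 0.367% and 0.710% of them. Thinned to 1000 UMIs, Arntl was seen in 0.340%, 0.322%, 0.321% and 0.310% of spots. Upper limits of the intervals were 1.22% in the NV male and 1.78% in the NV female. With so few spots, these shares cannot show a gap between V and NV mice or its absence. Without thinning, Dbp was seen in 94.5%, 89.3%, 75.7% and 94.8% of the spots, Per1 in 56.7%, 73.7%, 60.4% and 50.9%, and Arntl in 6.04%, 5.96%, 1.53% and 4.16%. These intervals treat spots as separate draws and say nothing of the spread between mice.

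To set the limbs against each other within a mouse, the mean log2 level (CPM plus 0.5) of the 3 positive limb genes was subtracted from that of the 7 others. This arm difference was 4.10, 4.89, 5.43 and 4.95. The V female was thus only just above the NV female. Leaving out the barely detected Npas2 gave 3.24, 3.25, 3.98 and 3.65, with the 2 NV mice nearly alike and both V mice above them, on 20 to 59 UMIs of Arntl per mouse. No test was made of the arm difference. The V minus NV difference of the arm difference was 0.69, and 0.30 without the NV male, 1.09 without the NV female, 0.46 without the V male and 0.93 without the V female. A second difference, chosen after the values were seen, set Dbp and Nr1d1 against Per1 and Per2. It was 2.24, 1.26, 0.89 and 2.43, so that each group held 1 mouse above 2 and 1 mouse below 1.3 on the log2 scale.

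The cardiac muscle region offered the same genes in a neighbouring tissue of 3 of the mice, on 1995760, 1671675 and 5554423 UMIs (NV male, NV female, V female). Cardiac muscle markers summed to 35240, 39240 and 26740 CPM there. The 8 members other than Arntl and Npas2 were lower as a share of UMIs in this region than in the parenchyma of all 3 mice, at 34.6% to 75.3% of the parenchyma level. This was 8 of the 9 members tested in both regions and 12 of 16 other pathway genes, beside 66.9% of all genes tested in both. Arntl stood at 5.01, 2.99 and 5.22 CPM, or 95.7%, 57.6% and 148% of its parenchyma level, with every interval including equality. The regions were defined by clustering the same spots, so this contrast is a description.

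The order of the mice in the parenchyma was carried over in part. The cardiac muscle region also held alveolar RNA, with alveolar type 2 markers at 8195, 4561 and 9176 CPM (NV male, NV female, V female). The part of this RNA in the shared orders was not tested. Dbp stood at 245.0, 207.0 and 311.3 CPM (NV male, NV female, V female), lowest in the NV female and highest in the V female as in the parenchyma. Per1 stood at 52.6, 80.2 and 42.7 CPM, again highest in the NV female and lowest in the V female. Per2 stood at 15.5, 34.1 and 28.4 CPM, with the NV male lowest and the NV female highest in both tissues. Tef stood at 118.2, 113.1 and 142.6 CPM and kept its order. Nr1d1 was nearly equal in the NV male and V female (140.3 and 140.1 CPM) and lower in the NV female (84.9 CPM), as it was in the parenchyma. In all, 4 of the 9 members kept the order of the 3 mice between the tissues, beside 26.4% of the genes tested in both. Dbp and Nr1d1 set against Per1 and Per2 gave 2.70, 1.34 and 2.58 in this region, low in the NV female and high in the NV male and V female, as in the parenchyma. That difference was chosen after the values were seen, and both regions of a mouse share a library. The match is therefore a description and not independent evidence. The arm difference between the limbs was 3.798, 3.818 and 3.885 in this region, nearly alike in the 3 mice. Without Npas2 it was 2.895, 3.173 and 2.934, on 10, 5 and 29 UMIs of Arntl. The V female then lay below the NV female, unlike in the parenchyma.

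**Figure D4:**
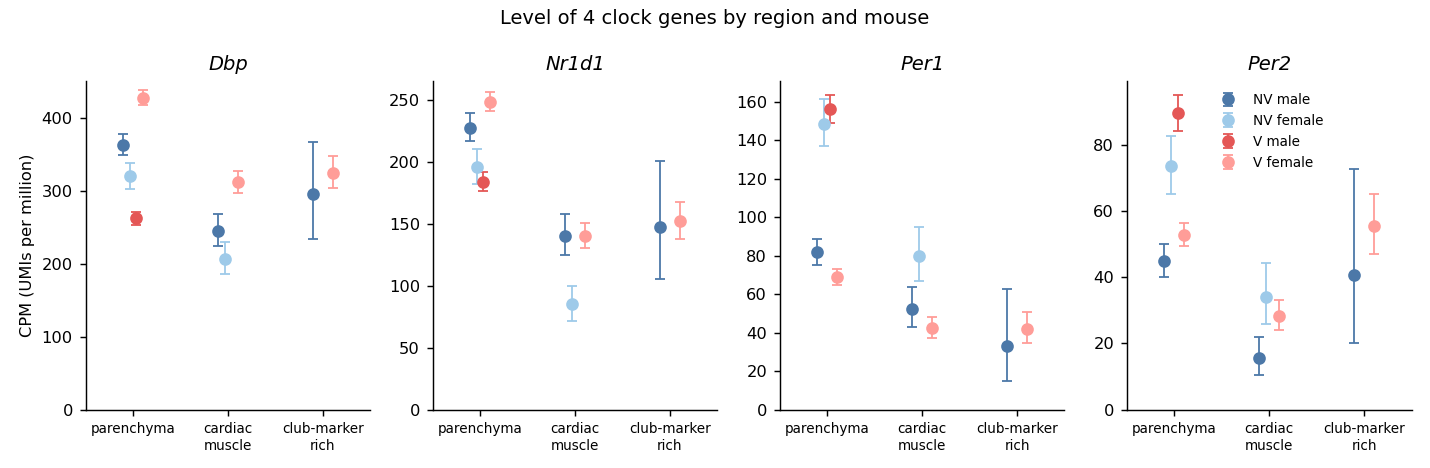
Level in CPM of Dbp, Nr1d1, Per1 and Per2 in each mouse, in the parenchyma, the cardiac muscle region and the spots rich in club cell markers, with 95% exact Poisson intervals. The NV female is low for Dbp and high for Per1 beside the NV male and V female in both the parenchyma and the cardiac muscle region.

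The V female was compared with the 2 NV mice in the cardiac muscle region, where the lone V mouse was assumed to vary like the NV mice, so that the fit holds no spread between V mice. Per1 had a log2 fold change of -0.72, with an adjusted p of 0.121 in edgeR's quasi-likelihood test, and Dbp one of 0.36, with an adjusted p of 0.873. The other 7 tested members lay between 0.08 (Nr1d2) and 0.30 (Per3), and none of the 9 was called, beside 1.89% of the 11855 genes tested there (224 genes, or 16 by DESeq2). The V female was above both NV mice for 6 of the 9 members (Arntl, Clock, Per3, Dbp, Tef and Nr1d2), beside 43.2% of all genes tested, and below both for 1 (Per1), beside 22.3%. The V female's muscle region also held more club cell marker RNA than those of the NV mice (11320 CPM against 4233 and 714), and the part of this in the levels was not tested.

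Airway epithelium was reached through spots in which club cell markers made up at least 5% of UMIs, a threshold set after the data were seen. Such spots numbered 13, 2, 0 and 89 (NV male, NV female, V male, V female), and 11 of the NV male's and 29 of the V female's also count in the parenchyma. In the V female, 45 spots lay between 4% and 6%. With so few spots elsewhere, the levels are a description of the V female, and no V against NV comparison was made. Per1 stood at 42.1 CPM in these spots of the V female (34.8 to 50.6), or 61.1% of its parenchyma level. Nr1d1 stood at 152.3 CPM (61.4% of its parenchyma level) and Dbp at 324.9 CPM (76.0%). Nr1d2 was also lower than in the parenchyma, at 152.6 CPM (87.4%). Per3 stood higher than in the parenchyma, at 78.4 CPM against 60.1. Per2, Tef, Clock, Arntl and Npas2 had intervals that overlapped those of the parenchyma. The NV male gave 295.0 CPM for Dbp (233.9 to 367.1) and 33.2 for Per1 (15.2 to 62.995).

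Among 18 other genes of the pathway, 17 were tested in the parenchyma and none was called. There were 3 with an unadjusted p under 0.05. Arntl2, a paralog of Arntl, stood at 2.55, 2.60, 0.84 and 1.08 CPM, on 10 to 18 UMIs a mouse, with a log2 fold change of -1.40 (95% CI -2.78 to -0.01). Usp2, a deubiquitinase that acts on clock proteins, stood at 29.8, 28.6, 18.7 and 21.4 CPM, with a log2 fold change of -0.54 (95% CI -0.98 to -0.09). Nampt, the rate limiting enzyme of NAD salvage and a clock target, stood at 65.9, 69.3, 99.6 and 81.0 CPM, with a log2 fold change of 0.42 (95% CI 0.02 to 0.83). The V and NV mice did not overlap for these 3 genes, but each had an edgeR adjusted p of 0.9996. In all, both V mice were above both NV mice for 2 and below for 3 of the 17, beside the shares of all genes given above. In the cardiac muscle region Usp2 stood at 228%, 253% and 280% of its parenchyma level (NV male, NV female, V female), the only one of the 18 with a counting interval above equality in each of the 3 mice.

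Over the 7 sums of a mouse and a region (4 in the parenchyma and 3 in the cardiac muscle region), the genes whose log2 level followed that of Dbp most closely, among 9861 genes with a mean of at least 10 CPM, were Gbp4 (Pearson r = 0.986), Aldh1a7 (0.969), Ampd2 (0.952), Bhlhe41 (0.950) and Tsr1 (0.945). Bhlhe41 (DEC2) is itself a clock repressor, and Aldh1a7 is one of the club cell markers used here. The genes closest to Arntl were Igsf3 (0.969), Rab7b (0.955), Lsm12 (0.938), Pmepa1 (0.927) and Klhl23 (0.924), against Arntl sums of 5 to 59 UMIs. Sums of the same mouse share a library and tissue, so these 7 points are not independent.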

How the data were processed

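Visium libraries of 1 lung section from each of 4 mice were used. Per the labels and the study's methods, the authors aligned the reads with Space Ranger to the mouse genome mm10 and deposited the raw UMI counts of every gene in every spot, not normalized, as a table for each section. Sections were processed together. Space Ranger assigns reads to genes, and every column was mapped to its mouse.

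Spots were clustered with scanpy 1.11.5 and leidenalg 0.10.2 (Leiden resolution 0.8, 1000 variable genes, 30 components) without the clock genes, listed markers and X and Y linked genes. Clusters with alveolar and capillary markers at 50% or more of the level over all spots (33966 CPM) were called parenchyma, a cluster with cardiac markers at 3 times or more of that level (6976 CPM) was called the cardiac muscle region, and a cluster of 436 spots with few UMIs (median 2178) was left out. These thresholds were set after the data were seen. The cluster with few UMIs held 97, 55, 0 and 284 spots of the NV male, NV female, V male and V female. No V male spot was therefore left out for few UMIs, and its shallow spots stayed in its parenchyma. No doublet caller was run, since a spot holds several cells. Of 2583 barcodes, 1411 occur in more than 1 section, because slides share position barcodes.

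Spots are not replicates, so counts were summed per mouse and region and tested with edgeR 4.0.16 in R 4.3.3 (TMM, filterByExpr, quasi-likelihood F test, Benjamini-Hochberg over all genes tested; a region needed 50 spots). DESeq2 1.42.0 was an alternative. Levels in CPM were scaled to total UMIs. Replicates are mice by their labels, 1 of each sex per group, and p-values measure the spread between them. All 10 members, the 18 other pathway genes (values for an unadjusted p under 0.05 or a log2 fold change over 1 in size) and the 5 genes most like Dbp and Arntl are named. Intervals are exact Poisson or exact Clopper-Pearson at 95% and cover counting error only. A count of 0 was given a limit of 3 UMIs. Members and lists were chosen with earlier results of these data known.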

Additional observations from a re-analysis of the deposited data

Results flagged for a closer look

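For 5 clock genes the V mouse and the NV mouse of the same sex stood in opposite order in males and females, each ratio with a counting interval that excludes 1. In males the parenchyma ratios of V over NV were 1.21 for Clock, 1.90 for Per1, 1.996 for Per2, 0.722 for Dbp and 0.808 for Nr1d1. In females they were 0.741 for Clock, 0.463 for Per1, 0.719 for Per2, 1.34 for Dbp and 1.27 for Nr1d1. Each sex has 1 mouse per group, so the difference was not tested, and 8.5% of all genes tested meet the same criterion, 48.7% where intervals are not asked to exclude 1. Genes with more UMIs have narrower intervals.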

How the results depend on the processing

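Of 144 alternative fold changes of members in the parenchyma, 128 kept their direction and 16 were reversed, and no member was called under any alternative. Clock (-0.06) gave 0.031 over the spots poorest in club cell, muscle and fat markers, 0.017 over the whole section and -0.27 to 0.14 when 1 mouse was left out. Per1 (-0.02) gave 0.027 over the whole section and -0.69 to 0.45 with 1 mouse left out. With 1 mouse left out, Per2 ranged from -0.11 to 0.65, Dbp from -0.39 to 0.35, Nr1d1 from -0.21 to 0.26 and Nr1d2 from -0.008 to 0.25. Nr1d1 gave -0.007 over the spots poorest in those markers. With the replicate number as a block, Dbp gave -0.019 and 0 genes were called, and the correlation of the deviations of same-numbered mice was 0.101 with 2 pairs, too few to treat the numbers as pairs. The parenchyma count of calls (0) was 12 with DESeq2, 5 without a filter on low counts, and 0 to 1036 with 1 mouse left out (69 when this was the V male, 1036 the V female, 0 either NV mouse). The muscle count (224) was 16 with DESeq2 and 221 to 255 in the other 3 alternatives. The cause of these changes was not tested. The arm difference of V minus NV (0.69) was 0.57 to 0.95 with another pseudocount or 1 member left out. It was 0.57 without Arntl and 0.57 without Npas2, and no alternative left out both of these genes with few UMIs. The range therefore does not show how far the value rests on them. With 1 mouse left out, chosen after seeing the data, it was 0.30 to 1.09. Arntl (-0.89) ranged from -1.37 to -0.53 with 1 mouse left out and was -0.47 over the marker-poor spots. The low UMI cluster was added to the parenchyma as an alternative chosen after seeing the data, with 0 calls.

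Not run were the muscle fits over spots split by their own markers (45 such spots in the NV female) and with 1 mouse left out, which leave 1 mouse a group or no V mouse, and the arm difference with no pseudocount, since Npas2 has counts of 0. The few UMIs of Arntl and Npas2 limit their values.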
